A study of Mus musculus with 12 samples.

Results

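A set of 9 genes, of the 24982 gene symbols measured, make up the set described here: genes of glucose entry, of the interconversion of pyruvate and lactate, of the monocarboxylate transporter family, and of the restraint of glucose uptake. They were taken by symbol, as Slc2a1, Slc2a3, Ldha, Ldhb, Slc16a1, Slc16a3, Slc16a5, Txnip and Arrdc4, and each symbol was found in every library. RNA was sequenced from B lymphocytes taken out of the spleens of mice aged 6 weeks. The 12 libraries fell into 3 groups of 4, each numbered by the submitters as biological replicates 1 to 4. WT mice were of the C57BL/J6 strain. Eμ-Myc mice carried a Myc transgene under the immunoglobulin heavy-chain enhancer, which drives Myc in the B lineage. Eμ-Myc; PRPS2 KO mice, called the knockout group here, carried the same transgene together with loss of PRPS2, an enzyme that makes phosphoribosyl pyrophosphate for nucleotide synthesis. The labels do not say from how many mice each library came.

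Glucose enters lymphocytes through the facilitative transporters encoded by Slc2a1 (GLUT1) and Slc2a3 (GLUT3). Glycolysis turns it into pyruvate, which lactate dehydrogenase reduces to lactate, and monocarboxylate transporters carry lactate out together with a proton. Txnip and Arrdc4 encode related alpha-arrestins that promote removal of glucose transporters from the cell surface, and both are known targets of MondoA (Mlxip), a glucose-sensing factor that pairs with MLX. MYC is known to bind CACGTG, the canonical E-box.

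Of the members with a matched promoter, those with a window that held 1 of the motifs given below are shown here. The motifs were searched because MYC, MondoA and their partners read related E-box letters. The windows are the 250 bases before the RefSeq transcription start in GRCm38.p6, written 5′ to 3′ on the strand of the gene. Capitals mark CACGTG, or a pair of CACGNG copies with 5 bases between them, the arrangement of a carbohydrate response element, searched on both strands. The windows are chr3:96557707-96557956 on the plus strand for Txnip, chr7:46845554-46845803 on the plus strand for Ldha, chr3:104638414-104638663 on the plus strand for Slc16a1 and chr7:68749239-68749488 on the minus strand for Arrdc4.
Txnip: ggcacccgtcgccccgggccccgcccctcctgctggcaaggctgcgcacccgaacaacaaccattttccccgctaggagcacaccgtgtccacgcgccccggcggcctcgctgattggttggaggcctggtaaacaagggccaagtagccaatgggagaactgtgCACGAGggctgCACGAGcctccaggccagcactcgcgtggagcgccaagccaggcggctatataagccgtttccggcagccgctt
Ldha: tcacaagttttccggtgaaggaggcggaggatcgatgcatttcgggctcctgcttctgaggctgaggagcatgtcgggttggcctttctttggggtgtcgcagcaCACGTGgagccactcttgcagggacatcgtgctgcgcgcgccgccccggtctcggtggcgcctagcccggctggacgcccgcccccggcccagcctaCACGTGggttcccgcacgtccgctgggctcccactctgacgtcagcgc
Slc16a1: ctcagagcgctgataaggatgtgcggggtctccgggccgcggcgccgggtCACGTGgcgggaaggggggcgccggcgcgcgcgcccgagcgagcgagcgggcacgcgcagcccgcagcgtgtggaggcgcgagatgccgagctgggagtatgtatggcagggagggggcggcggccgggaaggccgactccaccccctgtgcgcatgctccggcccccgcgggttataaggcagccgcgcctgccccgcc
Arrdc4: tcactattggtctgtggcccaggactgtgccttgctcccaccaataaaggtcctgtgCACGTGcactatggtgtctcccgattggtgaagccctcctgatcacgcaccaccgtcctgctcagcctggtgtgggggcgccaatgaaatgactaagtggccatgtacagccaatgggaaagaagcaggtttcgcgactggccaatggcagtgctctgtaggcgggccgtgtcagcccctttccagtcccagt
The Txnip window held 1 such pair and 0 copies of CACGTG, and the pair was found in 24 of 32851 mouse promoter windows of this length (0.0731%). The Ldha window held 2 copies of CACGTG, and the Slc16a1 and Arrdc4 windows 1 each. CACGTG was found in 6.02% of the windows and CACGNG on either strand, which includes CACGTG, in 23.5%. RefSeq windows were matched for 7 of the 9 members, and those of Slc2a1, Ldhb and Slc16a3 held neither CACGTG nor the pair. A second Ldha start in the same table had a window without either. These matches describe letters and not binding.

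Levels are given as scaled coverage: the deposited mean coverage of a gene divided by 1 scaling factor per library, between 0.856 and 1.25. Coverage was read as a mean per base of the gene. Whether the mean was taken over exonic bases is not given in the sources used here, so the order of levels between genes and the shares within pairs of genes rest on that reading, while the differences of 1 gene between groups do not. Summed over all genes, a library held 1277305.5 to 1885768.9 of coverage, and 14900 to 16231 symbols lay above 0. Prps2 itself was low in each knockout library, at 17.6, 16.2, 17.6 and 16.6, with means of 126 ± 18.2 for WT and 247 ± 41.3 for Eμ-Myc (SD, n = 4). Myc had a mean of 273 ± 49.8 across WT, of 1921 ± 326 across Eμ-Myc and of 2290 ± 1120 across the knockout libraries. All 8 B-cell markers lay above 1 in every library. T-cell and myeloid markers were also present in each group, and none of those lists' genes was at 0 in all libraries of a group. The 10 myeloid markers summed to more than the 8 B-cell markers in WT replicates 1 and 4 and in replicates 1 and 2 of both other groups. In WT replicate 1 these sums were 27117 and 8774. T-cell sums were 587 to 3500.3 in WT, 129 to 176 in Eμ-Myc and 18.4 to 797 in the knockout group. In such bulk samples fewer cells of a type and less RNA per cell cannot be told apart.

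The knockout libraries differed more among themselves than those of the other groups. Within WT the libraries correlated across genes with r of 0.959 to 0.993 and within Eμ-Myc with 0.974 to 0.9904, whereas within the knockout group r ran from 0.883 to 0.9945. Knockout replicates 1 and 2 lay together and apart from replicates 3 and 4, and each member is therefore given library by library.

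In WT cells the alpha-arrestin Txnip and the lactate dehydrogenase subunit Ldha were the most abundant members, at a mean scaled coverage of 1178 and 1039, and their values overlapped. The other 7 members lay far below, from 130.3 for Slc16a3 down to 11.6 for Slc16a1, and each of these overlapped its neighbour in the order. In Eμ-Myc cells the order was Ldha, Txnip, Slc16a1 and Slc2a3, with no overlap between neighbours, and Slc16a1 had moved from the last place to the third. Slc16a5 was last and lay apart from Arrdc4, the next above it. In the knockout group the first 3 places were the same as in Eμ-Myc and did not overlap each other, while all lower neighbours overlapped.

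**Figure D1:**
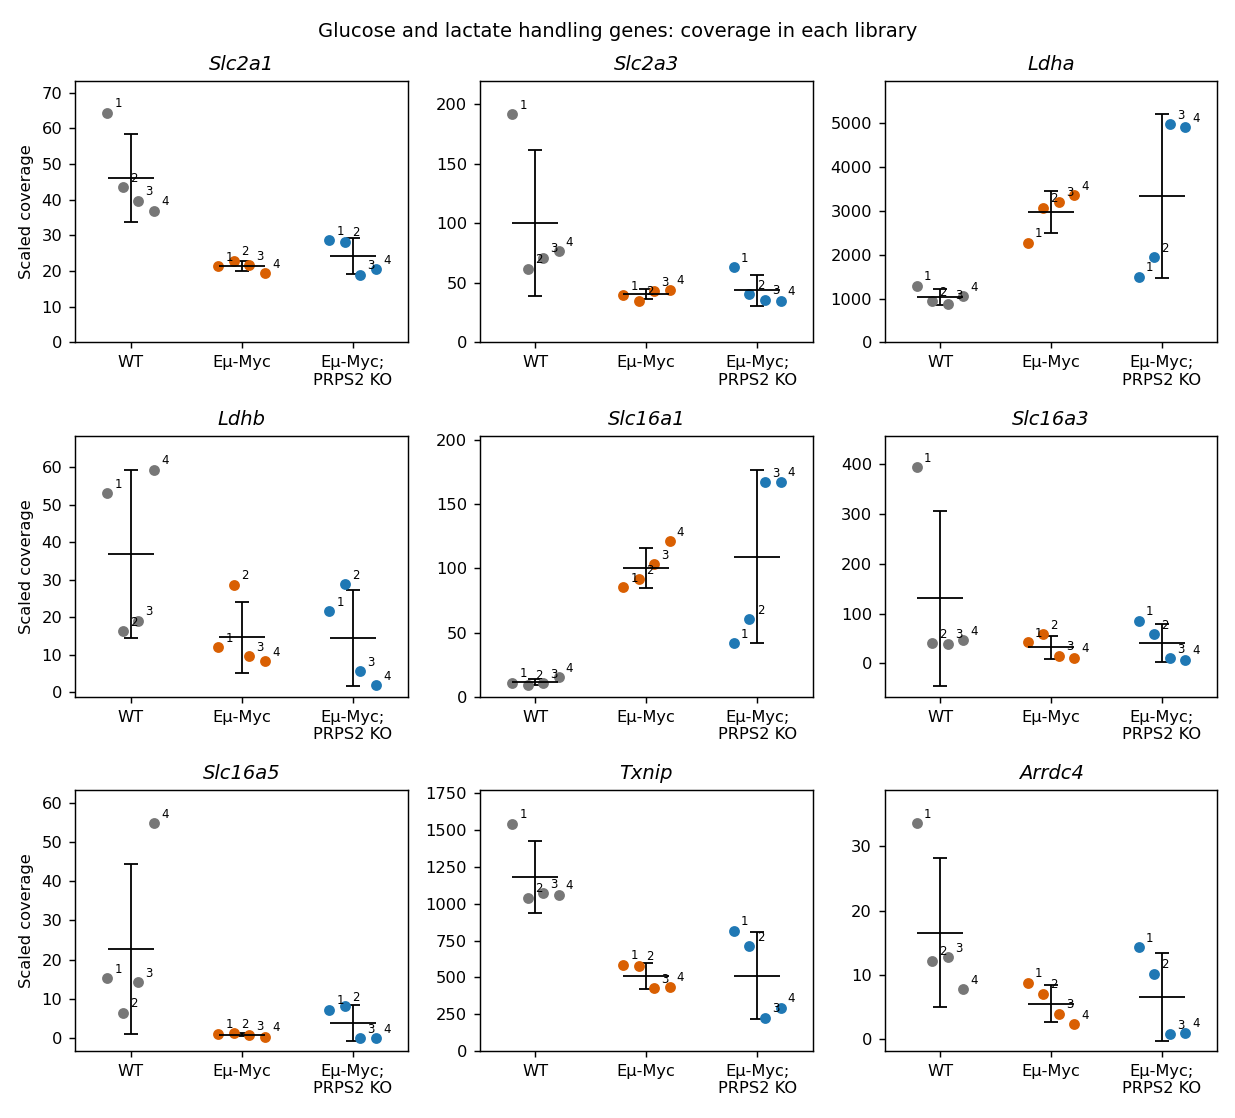
Scaled coverage (vertical axis, linear, a separate range for each gene) of the 9 members in each library, by group; points are libraries with their replicate number, the horizontal line is the group mean and the bar its SD (n = 4). Ldha and Slc16a1 are higher in all 4 Eμ-Myc libraries than in any WT library, Slc2a1, Slc2a3, Slc16a5 and Txnip are lower, and knockout replicates 1 and 2 sit apart from 3 and 4 for most genes.

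The comparison of Eμ-Myc with WT asks which genes differ in splenic B-cell samples with deregulated Myc. On the lactate side Ldha and Slc16a1 rose. Both glucose transporter genes fell, as did Slc16a5 and the alpha-arrestin genes Txnip and Arrdc4. A gene was called where limma's adjusted p, corrected across the 12692 genes tested by the Benjamini-Hochberg method, was under 0.05. By this rule 7 of the 9 members were called, 2 higher and 5 lower, beside 55.1% of all genes, 30.1% higher and 25.1% lower. The libraries of the compared groups did not overlap for 6 of the 9, beside 51.6% of all genes. With libraries scaled by total coverage 2 members were called higher and 6 lower, and the higher share of all calls was 42% in place of 54.5%. The median log2 fold change of the members was -1.21, beside -0.01 over all genes tested. All 9 members passed the filter on low values. Calls were thus common throughout the transcriptome, and the values of each gene follow. Fold changes are differences of log2(scaled coverage + 0.5), which understates changes of genes near 0.

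The main glucose transporter of lymphocytes, Slc2a1 (chromosome 4, 119108711 to 119137983, plus strand, mm10), had a scaled coverage of 64.4, 43.5, 39.7 and 36.9 in WT replicates 1 to 4 and 21.3, 22.9, 21.6 and 19.5 in Eμ-Myc. Every Eμ-Myc library lay below every WT library, and the 4 Eμ-Myc values were close together. The log2 fold change was -1.06 (SE 0.17, adjusted p 6.78e-04). The high-affinity transporter Slc2a3 (chromosome 6, 122727809 to 122801640, minus strand) was at 191, 61.9, 71.0 and 76.3 in WT and at 39.8, 35.1, 43.0 and 44.3 in Eμ-Myc. The groups did not overlap, and WT replicate 1 stood far above the others of its group. Slc2a3 fell by 1.14 on the log2 scale (SE 0.32, adjusted p 0.0138), and without WT replicate 1 it fell by 0.78 with an adjusted p of 0.00112.

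Ldha (chromosome 7, 46841475 to 46855627, plus strand), whose subunit favours reduction of pyruvate to lactate, had a scaled coverage of 1295.5, 934, 873 and 1052 in WT and 2275, 3072, 3205 and 3352 in Eμ-Myc. All Eμ-Myc libraries lay above all WT libraries. The log2 fold change was 1.52 (SE 0.16, adjusted p 5.87e-05). Ldha has processed pseudogenes in the mouse genome, and how the authors' counting treated reads shared with them is not stated. Ldhb (chromosome 6, 142490249 to 142507957, minus strand), whose subunit is linked to use of lactate, was at 53.0, 16.2, 19.0 and 59.3 in WT and at 12.1, 28.7, 9.64 and 8.29 in Eμ-Myc. The groups overlapped, since Eμ-Myc replicate 2 lay above WT replicates 2 and 3. Its log2 fold change of -1.25 (SE 0.52, adjusted p 0.06799) did not pass, with a 95% interval of -2.42 to -0.07. Ldhb passed when WT replicate 2 or Eμ-Myc replicate 2 was left out, with log2 fold changes of -1.56 (adjusted p 0.0379) and -1.62 (adjusted p 0.0236). In WT the Ldhb values were highest in replicates 1 and 4, the libraries in which the summed T-cell markers were also highest, at 1156 and 3500.3 against 587 and 781. The myeloid sums were highest in the same WT libraries, at 27117 and 15487. In Eμ-Myc, Ldhb was highest in replicate 2, which had the highest myeloid sum of its group, 17843, but a T-cell sum of 146 within the range of 129 to 176. The part of these markers in the Ldhb values was not tested.

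Slc16a1 (chromosome 3, 104638668 to 104658462, plus strand) encodes MCT1, a proton-linked transporter of lactate and pyruvate. Its scaled coverage was 11.0, 9.63, 10.8 and 15.1 in WT and 85.6, 91.4, 103.2 and 121 in Eμ-Myc. No other member differed as much upward, and the groups lay far apart. The log2 fold change was 3.06 (SE 0.16, adjusted p 2.48e-06), beside 2.81 (SE 0.16, adjusted p 3.10e-06) for Myc itself. Over all alternatives it stayed called and lay between 2.89 and 3.22, but it was not tested with a minimum of 10 in every library.

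Slc16a3 (chromosome 11, 120948480 to 120960868, plus strand) encodes MCT4, a lactate exporter of glycolytic cells that is prominent in myeloid cells. It was at 394, 40.9, 39.8 and 47.1 in WT and at 42.9, 59.0, 15.5 and 11.6 in Eμ-Myc. The groups overlapped, and WT replicate 1 lay far above the remaining 11 libraries. Its log2 fold change of -1.49 (SE 0.81, adjusted p 0.145) did not pass, with an interval of -3.33 to 0.34, and without WT replicate 1 it was -0.69 (adjusted p 0.281). The summed coverage of 10 myeloid markers was also highest in WT replicate 1, at 27117 against 8998 to 15487 in the other WT libraries and 6399.7 to 17843 in Eμ-Myc. All 10 myeloid markers lay above 1 in every library, and their part in the Slc16a3 values was not tested.

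Slc16a5 (chromosome 11, 115462474 to 115474398, plus strand) encodes MCT6, a member of the monocarboxylate transporter family not known for lactate transport. It was at 15.3, 6.45, 14.3 and 54.7 in WT and at 1.11, 1.26, 0.821 and 0.3503 in Eμ-Myc. All Eμ-Myc libraries lay below all WT libraries and close to 0. Slc16a5 fell by 3.695 on the log2 scale (SE 0.56, adjusted p 5.53e-04), and without WT replicate 4, the highest library, it fell by 3.14 with an adjusted p of 1.83e-04. The 9 T-cell markers found in the files summed to 587 to 3500.3 in WT, highest in that same library, and to 129 to 176 in Eμ-Myc, with all 9 above 1 in each of these libraries. Their part in the Slc16a5 values was not tested. The plots of marker sums set these library values side by side.

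**Figure D2:**
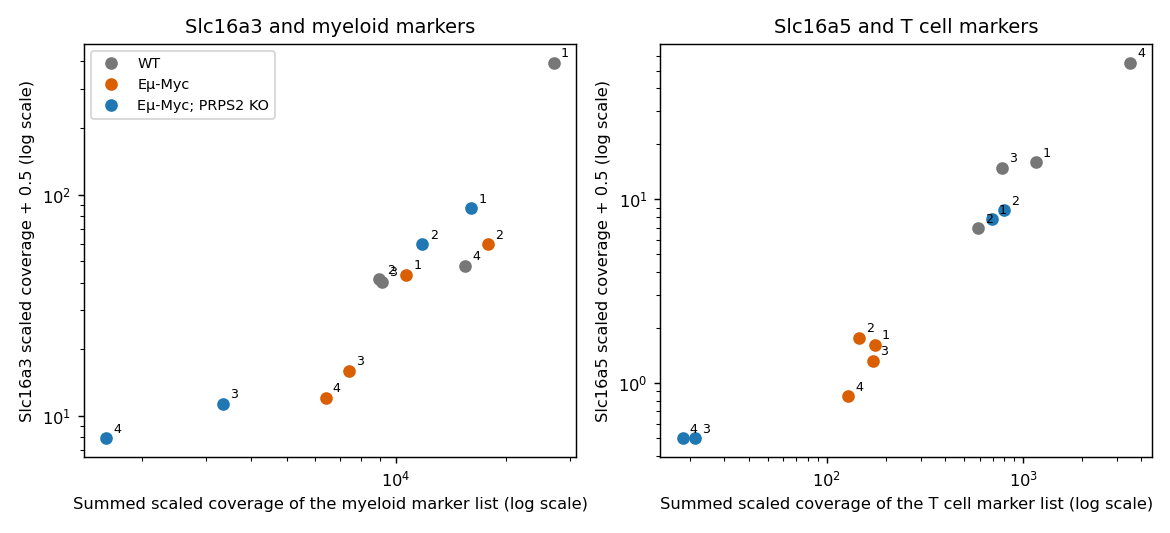
Scaled coverage + 0.5 of Slc16a3 against the summed scaled coverage of 10 myeloid markers (left) and of Slc16a5 against 9 T-cell markers (right), both axes logarithmic; each point is 1 library with its replicate number, coloured by group. WT replicate 1 is highest for Slc16a3 and for the myeloid sum, WT replicate 4 for Slc16a5 and for the T-cell sum, and knockout replicates 3 and 4 are lowest on both axes.

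Txnip (chromosome 3, 96557957 to 96561883, plus strand) encodes thioredoxin-interacting protein, which also binds thioredoxin. Its scaled coverage was 1541, 1041, 1070.3 and 1059 in WT and 586, 581, 429 and 437 in Eμ-Myc. The groups did not overlap, and within WT replicates 2 to 4 were close together below replicate 1. Txnip fell by 1.21 on the log2 scale (SE 0.17, adjusted p 2.68e-04), and without WT replicate 1 it fell by 1.07 with an adjusted p of 4.07e-04. The myeloid sums were 27117, 8998, 9148 and 15487 in WT and 10671, 17843, 7408.5 and 6399.7 in Eμ-Myc. Like Txnip, they were highest in WT replicate 1 and, within Eμ-Myc, higher in replicates 1 and 2 than in 3 and 4. Their part in the Txnip values was not tested. The antisense gene Gm15441 overlaps Txnip, and it lay at a scaled coverage of 0.205 to 2.4 in all libraries, far below Txnip, in files for which use of strand is not stated.

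Arrdc4 (chromosome 7, 68736995 to 68749241, minus strand), the closest relative of Txnip, was a far less abundant transcript, at 33.6, 12.2, 12.8 and 7.84 in WT and 8.81, 7.13, 4.0009 and 2.34 in Eμ-Myc. The groups overlapped, because Eμ-Myc replicate 1 lay above WT replicate 4. Arrdc4 fell by 1.43 on the log2 scale (SE 0.49, adjusted p 0.0324). This call was lost when WT replicate 1, 2 or 3 was left out (adjusted p 0.05855, 0.05246 and 0.05795). It was also lost without Eμ-Myc replicate 3 or 4 (0.08246 and 0.08096) and with all 12 libraries in one fit (0.155). WT replicate 1, the highest Arrdc4 library, had the highest myeloid sum. WT replicate 4, the lowest WT library for Arrdc4, had a higher sum, 15487, than WT replicates 2 and 3, at 8998 and 9148. Eμ-Myc replicates 1 and 2, the higher pair of that group, had myeloid sums of 10671 and 17843 against 7408.5 and 6399.7 in replicates 3 and 4. Of that pair, replicate 2 had the higher sum but the lower Arrdc4. The part of the myeloid markers in the Arrdc4 values was not tested.

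The shares within pairs of related genes do not depend on the scaling of libraries and are given as descriptions. Slc16a1 made up 2.72%, 19.1%, 21.3% and 24.3% of the summed coverage of Slc16a1 and Slc16a3 in WT, and 66.6%, 60.8%, 86.95% and 91.3% in Eμ-Myc. Thus the MCT4 gene had the larger coverage in every WT library and the MCT1 gene in every Eμ-Myc library. In the knockout libraries the Slc16a1 share was 32.8%, 50.7%, 93.9% and 95.77%, so the MCT4 gene had the larger coverage in replicate 1, the levels were close in replicate 2, and the MCT1 gene had nearly all of it in replicates 3 and 4. The Ldha share of Ldha plus Ldhb averaged 96.7 ± 1.68% for WT and 99.5 ± 0.309% for Eμ-Myc (SD, n = 4), with ranges of 94.7% to 98.3% and 99.1% to 99.75% that did not overlap. The Slc2a1 share of Slc2a1 plus Slc2a3 averaged 33.7 ± 6.72% for WT and 34.6 ± 3.72% for Eμ-Myc, and the libraries overlapped: both transporter genes fell, and neither gained on the other beyond the spread. The knockout libraries ran from 98.54% to 99.96% for the Ldha share and from 31.16% to 41.06% for the Slc2a1 share.

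**Figure D3:**
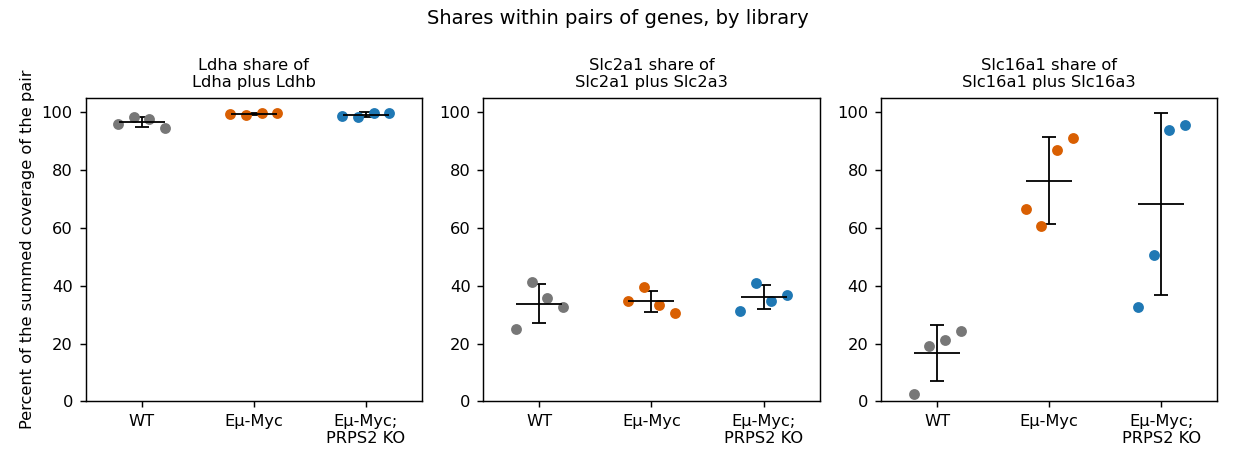
Percent of the summed scaled coverage of a pair of genes that comes from the first gene, by library (points) with the group mean and SD (n = 4), for Ldha with Ldhb, Slc2a1 with Slc2a3, and Slc16a1 with Slc16a3. The Slc16a1 share lies at 24.3% or below in WT and at 60.8% or above in Eμ-Myc, while the Slc2a1 share overlaps between groups.

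The second comparison, between the knockout group and Eμ-Myc, asks whether loss of PRPS2 alters the Myc-associated levels. None of the 9 members passed, with an adjusted p of 0.9998 each by limma, and the groups overlapped for all 9. In this comparison 1 of 12531 genes was called, 0.00798%, which was Prps2 itself, with a log2 fold change of -3.81 (SE 0.14, adjusted p 2.53e-05). At an unadjusted p under 0.05 there were 124 genes (0.99%) and 0 members, and groups did not overlap for 1.47% of genes. The median log2 fold change of the members was -0.03, beside -0.04 over all genes tested. A count of 0 does not show that the levels were alike, because the intervals were wide for most members.

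The knockout libraries of Slc2a1 were at 28.6, 28.3, 19.0 and 20.5, and those of Slc2a3 at 63.2, 40.6, 35.7 and 35.1. Both overlapped the Eμ-Myc libraries and both were highest in knockout replicate 1. The differences from Eμ-Myc were 0.15 on the log2 scale for Slc2a1 (interval -0.23 to 0.54) and 0.07 for Slc2a3 (interval -0.39 to 0.53), the narrowest intervals among the members. Changes of the size seen between Eμ-Myc and WT lay outside these intervals.

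For Ldha the knockout libraries were at 1497, 1944, 4968 and 4909. Replicates 1 and 2 lay below all Eμ-Myc libraries and replicates 3 and 4 above all of them, so that the mean of the group, 3330 ± 1867 (SD, n = 4), described none of its libraries. The difference was -0.02 with an interval of -0.96 to 0.92. Slc16a1 was divided in the same manner, at 42.0, 60.7, 167 and 167, with a difference of -0.11 and an interval of -1.15 to 0.93. Ldhb was at 21.6, 28.8, 5.59 and 1.82, with a difference of -0.46 and an interval of -2.31 to 1.39. Slc16a3 was at 86.0, 59.0, 10.8 and 7.3998, with a difference of -0.03 and an interval of -2.045 to 1.99. Its 2 low libraries were those with the lowest myeloid sums, 3331 and 1595 against 16073 and 11810 in replicates 1 and 2, and that part was not tested.

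Slc16a5 was at 7.26 and 8.17 in knockout replicates 1 and 2 and was listed at 0 in replicates 3 and 4. The 9 T-cell markers summed to 691 and 797 in the first pair and to 21.2 and 18.4 in the second, and 4 of the 9 lay above 1 in every knockout library. Their part was again not tested. The difference from Eμ-Myc was 0.60 with an interval of -1.77 to 2.97.

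Txnip was at 817, 710.1, 228 and 296 and Arrdc4 at 14.3, 10.2, 0.798 and 1.02 in the knockout libraries. For both genes replicates 1 and 2 lay above all Eμ-Myc libraries, toward WT, and replicates 3 and 4 below all of them. The differences were -0.18 for Txnip (interval -1.13 to 0.78) and -0.38 for Arrdc4 (interval -2.37 to 1.61). The myeloid and T-cell sums given for Slc16a3 and Slc16a5 were likewise higher in replicates 1 and 2 than in 3 and 4, and their part was not tested.

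Placed against the range of the 4 Eμ-Myc libraries, knockout replicate 1 lay outside it on the WT side for 8 of the 9 members and replicate 2 for 7. Replicates 3 and 4 each lay outside it on the far side for 8. Of the 6996 genes called in the first comparison, 85.7% lay on the WT side in replicate 1 and 71% in replicate 2. On the far side lay 78.3% of those genes in replicate 3 and 75.6% in replicate 4, so these positions were common among called genes. Ldha, Slc16a1, Slc16a5, Txnip and Arrdc4, 5 of 9 members (55.6%), had replicates 1 and 2 on the WT side and replicates 3 and 4 on the far side. All 5 were among the 7 members called in the first comparison (71.4%), beside 3551 of the 6996 genes called there (50.8%) with the same division. The difference of these shares was not tested. Myc lay at 1061 and 1632 in knockout replicates 1 and 2 and at 3099.6 and 3367.5 in replicates 3 and 4, against 1546 to 2299 in Eμ-Myc. Replicate 1 was thus below the Eμ-Myc range, replicate 2 within it and replicates 3 and 4 above it. The plot of each library against the WT mean shows this division gene by gene.

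**Figure D4:**
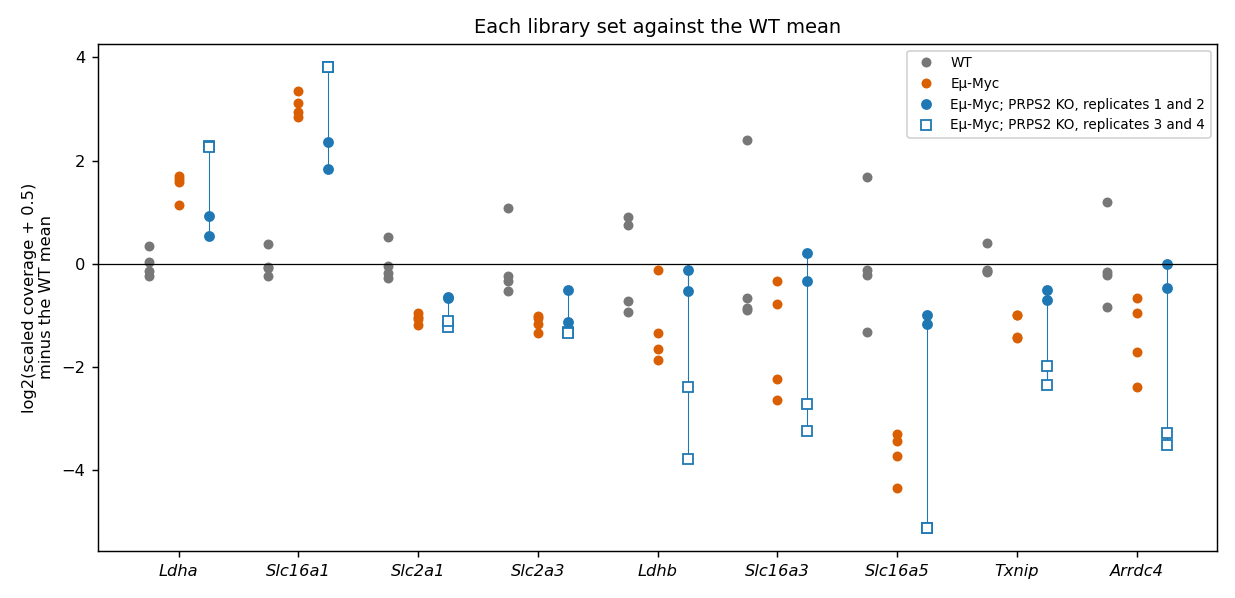
log2(scaled coverage + 0.5) of each library minus the mean of the 4 WT libraries, for the 9 members; grey points are WT, orange Eμ-Myc, filled blue circles knockout replicates 1 and 2, open blue squares knockout replicates 3 and 4, with a thin line joining the 4 knockout libraries. For Ldha, Slc16a1, Slc16a5, Txnip and Arrdc4 the squares lie beyond all Eμ-Myc libraries and the filled circles between them and WT or at the level of WT.

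The third comparison set the knockout libraries against the same WT libraries that the first one used. It gave 4 called members of 9, beside 27.9% of 12654 genes called, 15.7% higher and 12.2% lower. Groups did not overlap for the same 4 members, beside 37.1% of all genes. Ldha and Slc16a1 rose, by log2 fold changes of 1.499 (SE 0.41, adjusted p 0.0365) and 2.95 (SE 0.46, adjusted p 0.0143), and all knockout libraries of both lay above all WT libraries. Slc2a1 and Txnip fell, by 0.91 (SE 0.22, adjusted p 0.0291) and 1.38 (SE 0.42, adjusted p 0.0439), and all knockout libraries of both lay below all WT libraries. The Txnip call was lost without the filter on low values (adjusted p 0.05403) and with the replicate block (adjusted p 0.05055), and that of Ldha with the block (adjusted p 0.05914). Slc2a3, at a log2 fold change of -1.07 (adjusted p 0.0581), Slc16a5, at -3.096 (adjusted p 0.0685), Arrdc4, at -1.81 (adjusted p 0.128), Ldhb, at -1.71 (adjusted p 0.133), and Slc16a3, at -1.52 (adjusted p 0.239), did not pass. Without WT replicate 1, Slc2a3 was at -0.71 and Slc16a3 at -0.72, and without knockout replicate 4 Ldhb was at -1.02 and Slc16a3 at -0.95. The median of the members was -1.38, beside -0.03 over all genes tested. These calls changed with single libraries: none of the 9 passed without WT replicate 2 or WT replicate 3, and Slc16a1 alone passed without WT replicate 1, WT replicate 4, knockout replicate 3 or knockout replicate 4. Without knockout replicate 1 there were 7 called members and without knockout replicate 2 there were 5, while all genes called ran from 15 without WT replicate 3 to 6579 without knockout replicate 1.

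**Figure D5:**
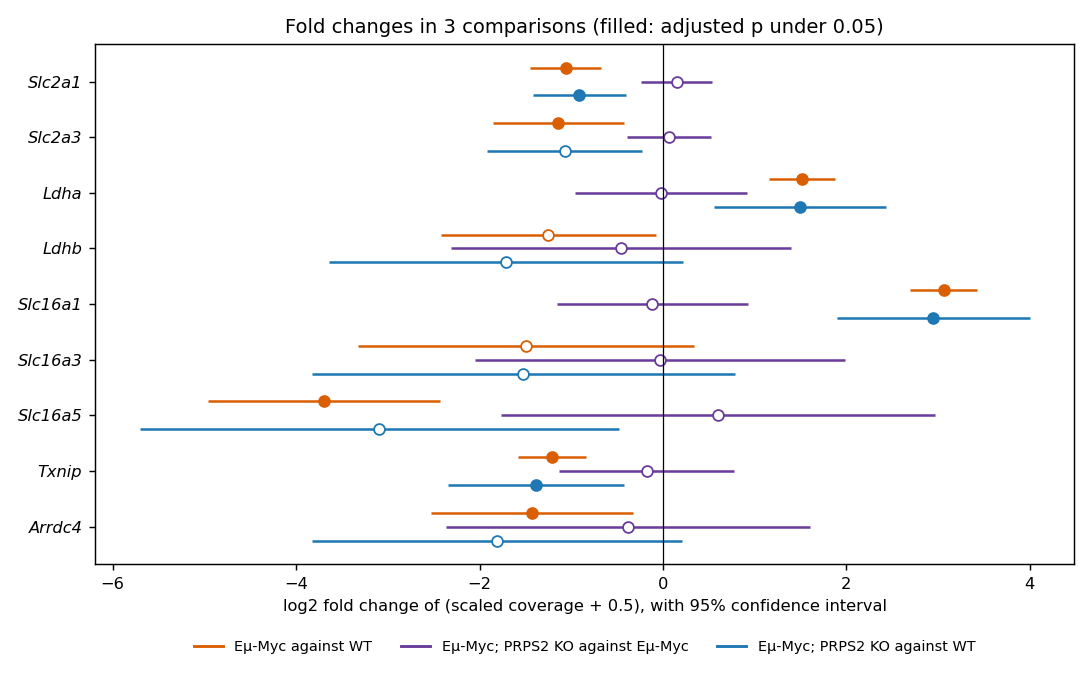
log2 fold change of scaled coverage + 0.5 with its 95% confidence interval for the 9 members in the 3 comparisons, filled where the adjusted p over all genes was under 0.05. The intervals of Eμ-Myc against WT are narrow for Ldha and Slc16a1, to the right of 0, and for Slc2a1 and Txnip, to the left, whereas the intervals of the knockout group against Eμ-Myc all include 0.

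Genes around the members were read from lists written with earlier results of these data known, and their counts stand beside the 55.1% of all genes called in the first comparison, 0.00798% in the second and 27.9% in the third. Of 12 further hexose transporter genes 3 were tested and 0 called, by limma, 2 of them at an unadjusted p under 0.05. Slc2a6, a lysosomal family member, had a log2 fold change of -1.25 (adjusted p 0.05548) and Slc2a9, a urate transporter, of -0.31 (adjusted p 0.0617). Slc2a6 was at 137 in WT replicate 1, the library with the highest myeloid sum, against 30.2 to 45.1 in the other WT libraries. The lowest of these, WT replicate 4, had a higher myeloid sum, 15487, than WT replicates 2 and 3. In Eμ-Myc replicates 1 and 2 Slc2a6 was at 33.1 and 29.6, with myeloid sums of 10671 and 17843. Without WT replicate 1 the log2 fold change of Slc2a6 was -0.78 (adjusted p 0.07387). In the knockout libraries Slc2a6 was at 56.8, 25.5, 3.88 and 2.5045, in the order of their myeloid sums, and the part of these markers was not tested. Both passed when libraries were scaled by median ratios (0.0475 and 0.03996) or by total coverage (0.02915 and 0.0223). These genes were named after their values were seen.

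Of 15 other monocarboxylate transporter genes and partners, 7 were tested, of which 2 rose and 2 fell. Bsg, the chaperone basigin that brings MCT1 and MCT4 to the membrane, rose by 0.59 (SE 0.12, adjusted p 0.00227), and so did Slc16a13, by 0.62 (adjusted p 0.0113). Slc16a7, the pyruvate and lactate transporter MCT2, fell by 1.23 (adjusted p 0.007799). Slc16a7 was at 7.14, 10.1, 10.1 and 3.98 in WT and at 3.99, 2.80, 2.975 and 1.99 in Eμ-Myc, and the groups overlapped. Its knockout values were 4.71, 3.94, 1.25 and 1.48. The 6 platelet markers summed to 290, 422, 409 and 116 in WT and to 156.5, 168, 124 and 82.4 in Eμ-Myc. In the knockout libraries they summed to 151, 50.6, 40.4 and 43.5. The T-cell, NK-cell and myeloid sums were higher in knockout replicates 1 and 2 than in 3 and 4, as Slc16a7 was. In WT, however, those sums were lowest in replicates 2 and 3, where Slc16a7 was highest. The part of any of these markers was not tested. Emb, the partner embigin, fell by 1.11 (adjusted p 0.0327). Emb was at 195, 60.4, 69.1 and 130 in WT, 55.3, 64.4, 38.8 and 34.2 in Eμ-Myc and 83.6, 82.1, 30.1 and 24.6 in the knockout libraries, and in each group the libraries with the higher myeloid sums were the higher ones for Emb. The part of the markers was not tested. The Emb call was lost without WT replicate 1 (log2 fold change -0.80, adjusted p 0.05148) or 4 (adjusted p 0.0846) and without Eμ-Myc replicate 3 (0.08685) or 4 (0.08845). Slc16a6, named after its values were seen, also passed as lower with median ratios (adjusted p 0.04155) and with total coverage (adjusted p 0.01886). Against Eμ-Myc the knockout group gave log2 fold changes of -0.09 for Bsg, 0.07 for Slc16a13, -0.17 for Slc16a7 and 0.03 for Emb, none called. Against WT its values were 0.4973 for Bsg, 0.69 for Slc16a13 (adjusted p 0.0368), -1.395 for Slc16a7 and -1.085 for Emb, of which Slc16a13 was called. With total coverage scaling the call of Slc16a13 was lost (adjusted p 0.05097) and Bsg was called instead (adjusted p 0.04461).

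Glucose is trapped in the cell by hexokinases, and 4 of 9 listed genes of glucose phosphorylation were tested. Hk1, the housekeeping hexokinase, fell by 0.98 (SE 0.13, adjusted p 2.64e-04), from a mean of 92.3 ± 14.3 across WT to 46.4 ± 5.24 across Eμ-Myc (SD, n = 4). Its WT values were 106 and 103 in replicates 1 and 4 and 78.3 and 81.7 in replicates 2 and 3, and its knockout values 69.1, 66.6, 33.2 and 33.0. The T-cell and NK-cell sums were also higher in WT replicates 1 and 4 and in knockout replicates 1 and 2, and their part was not tested. Hk2, the inducible hexokinase, rose by 0.62 (adjusted p 0.04976), and G6pc3, a glucose-6-phosphatase, by 0.32 (adjusted p 0.03285). Hk2 passed in 1 of the 8 fits that left out a library and G6pc3 in 3. Neither of these increases passed when libraries were scaled by median ratios (0.0655 for Hk2 and 0.0609 for G6pc3) or by total coverage (0.124 and 0.278). In the knockout group against Eμ-Myc the values were 0.04 for Hk1, 0.28 for Hk2 and 0.04 for G6pc3, none called. Against WT they were -0.94 for Hk1 (adjusted p 0.0449), 0.8992 for Hk2 (adjusted p 0.0468) and 0.35 for G6pc3, the first and second called. The Hk1 call was lost with total coverage scaling (adjusted p 0.05288).

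Of 20 genes that decide the fate of pyruvate, 16 were tested, 8 rose and 0 fell. The 4 with the smallest adjusted p were subunits of the pyruvate dehydrogenase complex, which feeds pyruvate into the citric acid cycle: Dld, Dlat, Pdha1 and Pdhx, with log2 fold changes of 0.89 (adjusted p 8.56e-05), 0.96 (1.14e-04), 0.85 (5.35e-04) and 0.83 (6.64e-04). Dld averaged 81.2 ± 3.87 across WT and 152 ± 15.8 across Eμ-Myc (SD, n = 4), and the libraries of the groups did not overlap. The median of the 16 was 0.41, beside -0.01 over all genes. Against Eμ-Myc the knockout group had -0.04 for Dld, 0.09853 for Dlat, 0.03 for Pdha1 and -0.02 for Pdhx, and 0 of 16 were called. These small values described none of the libraries: Dld was at 100 and 110 in knockout replicates 1 and 2 and at 206 and 208 in replicates 3 and 4, against 134 to 165 in Eμ-Myc (interval -0.65 to 0.58). Dlat, Pdha1 and Pdhx likewise lay below every Eμ-Myc library in replicates 1 and 2 and above every one in replicates 3 and 4. Against WT 5 of 16 were called higher, beside 15.7% of all genes, among them Dld at 0.86 (adjusted p 0.0453), Dlat at 1.06 (adjusted p 0.03802) and Pdha1 at 0.88 (adjusted p 0.03804), while Pdhx at 0.81 did not pass (adjusted p 0.06499).

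Among 11 other alpha-arrestins, thioredoxin partners and MLX factors, 9 were tested, 3 rose and 4 fell. Those that rose were 3 of the 4 genes of the thioredoxin system tested. They were Txn2, the mitochondrial thioredoxin, by 0.93 (SE 0.12, adjusted p 1.43e-04), Txnrd2, its reductase, by 0.43 (adjusted p 0.004697), and Txn1, the cytosolic thioredoxin that TXNIP binds, by 0.8976 (adjusted p 0.00781). Txnrd1, the cytosolic reductase, had a log2 fold change of 0.24 (adjusted p 0.1107), its groups overlapped, and it passed without Eμ-Myc replicate 2 (0.33, adjusted p 0.0233). Those that fell were Arrdc1 by 0.51 (adjusted p 0.008801) and, named after their values were seen, Arrdc2 by 0.52, Arrdc3 by 1.13 and Mlx, the partner of MondoA, by 0.41 (adjusted p 0.0204, 0.0133 and 0.008801). The Arrdc2 call was lost without WT replicate 1 (adjusted p 0.05213) and without Eμ-Myc replicate 3 (0.05814) or 4 (0.06067). The gene of MondoA, Mlxip, had a log2 fold change of -0.27 (adjusted p 0.2103) and did not pass. Against Eμ-Myc the knockout group had -0.08 for Txn2, -0.03 for Txnrd2, -0.14 for Txn1 and -0.1043 for Arrdc1, none called. Txn2 was at 204 and 226 in knockout replicates 1 and 2 and at 376 and 375 in replicates 3 and 4, against 258 to 365 in Eμ-Myc. Txnrd2 likewise lay below every Eμ-Myc library in replicates 1 and 2 and above every one in replicates 3 and 4. Txn1 lay below the Eμ-Myc range in replicates 1 and 2, above it in replicate 3 and within it in replicate 4. Arrdc1 lay within that range in replicates 1 and 2 and below it in replicates 3 and 4. Against WT the knockout group had 0.85 for Txn2 (adjusted p 0.0341) and -0.61 for Arrdc1 (adjusted p 0.0252), both called. Txnrd2 at 0.397 and Txn1 at 0.76 were not called there. Mlx missed the threshold against WT (adjusted p 0.05037) and passed as lower with median ratios (0.04079) and with total coverage (0.02278). None of the genes in the 5 lists was called in the knockout group against Eμ-Myc. Of the 22 list genes called in Eμ-Myc against WT, 18 were called in all 8 fits that left out 1 library, the exceptions being Emb, Hk2, G6pc3 and Arrdc2. Each of the 10 called in the knockout group against WT kept its call in 2 of 8 such fits.

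The genes whose profile over the 12 libraries was most like that of Txnip were Ctdsp2, Tcp11l2 and Ndrg1, with Pearson r of 0.993, 0.993 and 0.9915 on the log2 scale, among 9650 genes whose mean scaled coverage reached 8. Arrdc4 had r of 0.943 and was 539th in that order. Each r mixes the difference between groups with the division of the knockout libraries and is a description only. Ctdsp2 and Tcp11l2 fell in Eμ-Myc against WT by 0.57 each, less than Txnip, and Ndrg1 by 1.54.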

How the data were processed

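The deposited values were read as the mean coverage of each gene in 1 library, a signal with 1 decimal that the authors had not scaled to a common total. The reading rests on the type of the deposited files and on the values, of which 91.6% of those above 0 were not whole. Per the submitters' processing notes the build was mm10 and DESeq and R 4.3.3 were used, with no role given. Per the labels' protocols polyadenylated RNA was made into directional libraries. The aligner, the counting step, the annotation and whether counting used strand are not given in the sources used here, and the depth in reads is unknown. Errors come from the spread of the libraries, which the labels call biological replicates without naming mice.

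Each library was divided by a factor from trimmed means of log ratios, with 30% of the ratios and 5% of the mean values removed at either end. Testing was limited to genes that reached 1 in 4 or more of the 8 libraries of a comparison. limma 3.58.1 in R 4.3.3 fitted log2(scaled coverage + 0.5) over these genes with a trended, robust prior, two-sided, and only member and list rows were read. The method was tested on simulated data, where it recovered a smaller share of the changes in both comparisons with the knockout group than in the first, with false calls somewhat above the nominal rate in both. The simulated noise was drawn independently for each gene and library. It did not carry the division of the knockout libraries into pairs, so these shares may not hold for the data. The members, lists and tests were chosen with earlier results of these data known. Named besides the members were Prps2 and Myc, up to 4 called genes of each list that had the smallest adjusted p when Eμ-Myc was set against WT, and the 3 genes most like Txnip by Pearson r, Gm and Rik symbols left out. Naming Gm15441, Slc2a6, Slc2a9, Slc16a6, Txnrd1, Arrdc2, Arrdc3, Mlx and Mlxip went beyond this. The marker lists were for B cells, T cells (9 of 10 symbols in the files), NK cells, myeloid cells, erythroid cells and platelets. Which list is set beside which gene was not planned beforehand. Gene positions are from GENCODE M21 and promoters from RefSeq. Figures were drawn with Python 3.11.15 and matplotlib 3.10.9.

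Replicate numbers run from 1 to 4 in each group. Deviations from the group means of same-numbered knockout and Eμ-Myc libraries correlated with r of 0.641, 0.189, 0.243 and 0.599, all over 0.1. A fit with the number as a block was added for all 3 comparisons, although with WT not every pair was over 0.1. For knockout replicates 2 and 3 the closest Eμ-Myc library carried another number (1 and 4). No label says what the numbers share, and the pairing was read from the data. Further alternatives were 2 other scalings, 2 other filters, 2 other pseudocounts, all 12 libraries in one fit, library quality weights and leaving out each library.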

Additional observations from a re-analysis of the deposited data

Results flagged for a closer look

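In 3 of the 36 sets of 4 libraries examined (9 members and 3 pair shares, each in 3 groups), 1 library lay far from the other 3 by Dixon's test, where chance gives about 1 in 20. All 3 were WT replicate 1. Slc2a3, the GLUT3 gene, had a scaled coverage of 191.2 there, against 61.89 to 76.34 in WT replicates 2 to 4. Slc16a3, the MCT4 gene, was at 393.6, against 39.83 to 47.06. Txnip was at 1541, against 1041 to 1070.3. In the same library the 10 myeloid markers summed to 27117, the highest of the 12 libraries, and the 8 B-cell markers to 8774, against 15316 and 13173 in WT replicates 2 and 3 and 8276 in WT replicate 4. The part of these cell-type markers in the 3 values was not tested.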

How the results depend on the processing

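Of the 9 members in Eμ-Myc against WT, 7 were called, and 6 to 8 when each library was left out in turn. With a minimum of 10 in every library 5 members could be tested and 4 were called, with quality weights 9 were called and with all 12 libraries in one fit 6. Ldha, Slc16a1, Slc2a1, Slc2a3, Txnip and Slc16a5 were called under every alternative that tested them. Total coverage scaling moved the median of all genes by -0.169 and added Ldhb (adjusted p 0.0335), and quality weights added Ldhb (0.01696) and Slc16a3 (0.0241).

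Of the knockout group against Eμ-Myc, 0 members were called in all alternatives but quality weights, which called 8 (2 higher and 6 lower) among 7631 genes. Those weights were 0.0827 and 0.125 for knockout replicates 1 and 2 and 3.41 and 7.55 for replicates 3 and 4, so the value came mostly from the last pair. Signs turned there for Slc2a1 (-0.07221), Slc2a3 (-0.26), Ldha (0.65), Slc16a1 (0.66) and Slc16a5 (-1.26). Signs also turned for Ldha (0.01838 and 0.02214) and Slc16a3 (0.01028 and 0.01726) with scaling by median ratios and by total coverage, and for Slc16a5 with a pseudocount of 0.1 (-0.04286). With 1 library left out, the log2 fold changes ran from 0.06182 to 0.25 for Slc2a1, -0.12 to 0.16 for Slc2a3, -0.28 to 0.2981 for Ldha, -0.99 to 0.23 for Ldhb, -0.4004 to 0.26 for Slc16a1, -0.61 to 0.55 for Slc16a3, -0.47 to 0.14 for Txnip and -0.99 to 0.185 for Arrdc4. Slc16a5 was not tested in 4 of those fits and ran from 0.38 to 1.27 in the others.

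For the knockout group against WT, 4 members were called, 0 to 7 when each library was left out, and 9 with quality weights. All genes called then numbered 15 to 6579 in place of 3534, 10505 with weights and 5835 with all 12 libraries in one fit. That fit added Slc2a3 and Slc16a5, the minimum of 10 added Slc2a3 (4 members tested), and without a filter Txnip was lost and 3 members were called. The replicate block changed no member call between the knockout group and Eμ-Myc. With WT the same numbers did not correlate in every pair (r from -0.0965 to 0.249 with Eμ-Myc and from -0.412 to 0.391 with the knockout group). The block then left 7 members in Eμ-Myc against WT, and 3 of the knockout group against WT (Slc16a1, Slc2a1 and Slc2a3) among 1356 genes. The cause of these shifts was not tested. The pair shares moved by less than 1 SD when a library was left out. List genes were refitted with the other scalings and, chosen after seeing the data, with each library left out, and the median of the monocarboxylate transporter list turned from 0.0978 to -0.0648 with total coverage. With 4 libraries a group and no read depth, small differences of Ldhb, Slc16a3, Slc16a5 and Arrdc4 could not be resolved.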

Other observations

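NK-cell markers followed the division of the knockout libraries that the members show. Their 6 genes summed to 987 and 1331 in WT replicates 1 and 4 and to 325 and 377 in replicates 2 and 3. In Eμ-Myc the sum ran from 89.6 to 237. In the knockout group it was 537 and 393 in replicates 1 and 2, against 22.8 and 21.4 in replicates 3 and 4.

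The immediate early genes Fos and Jun, which rise within minutes of handling or stimulation in many cell types, were looked up after the values of the members had been seen. Fos had a scaled coverage of 886 and 690.4 in WT replicates 1 and 4, 31.1 and 41.3 in WT replicates 2 and 3, and 248 to 387 in Eμ-Myc. In the knockout group it was 482 and 452 in replicates 1 and 2 and 32.5 and 15.8 in replicates 3 and 4. Jun was at 655 and 917.5 in WT replicates 1 and 4, 18.7 and 18.9 in WT replicates 2 and 3, and 158.5 to 257.4 in Eμ-Myc. In the knockout libraries Jun was at 376.5, 289.5, 23.4 and 14.6. For both genes all Eμ-Myc libraries lay above WT replicates 2 and 3. The libraries high for both genes included those with the highest Ldhb in WT, replicates 1 and 4, and the knockout pair nearer to WT for most members. Their part in the members' values was not tested.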
